A study of Mus musculus with 48 samples.

Results

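The mitochondrial respiratory chain and ATP synthase were followed through their nuclear-encoded genes in mouse liver. Members were the rows of the count table with a symbol starting Nduf plus a, b, c, s or v and a digit, Uqcr, Cox4 to Cox8 or Atp5, or equal to Sdha, Sdhb, Sdhc or Sdhd, and with 10 or more counts in at least 3 libraries. Of 22354 genes, 87 rows matched these symbols and 80 met the count rule. Complex I had 37 members (7 core and 30 accessory), complex II 4, complex III 8, complex IV 13 and complex V 15. The other 3, Cox4nb, Atp5s and Atp5sl, matched by symbol only: Cox4nb is an older symbol of Emc8, a subunit of the ER membrane protein complex, and RefSeq now lists Atp5s and Atp5sl as Dmac2l and Dmac2.

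Livers came from 48 female C57BL/6J mice, 25 labelled WT and 23 labelled KO, in which Bmal1, a transcription factor of the circadian clock (symbol Arntl), was deleted in adipocytes. All mice, WT and KO, had been held for 1 day in darkness and fasted for 24 h, and livers were taken every 4 h from ZT0 to ZT20, with 4 mice per genotype and time except 5 WT and 3 KO at ZT16. ZT is the time in hours counted from lights on in the earlier 12 h light schedule. Ages ran from 28.75 to 105 weeks, and KO mice weighed 24.2 ± 3.57 g (SD, n = 23) against 21.8 ± 1.997 g (SD, n = 25) in WT. Neither was even over the times of day. Ages were 58.5 to 69.75 weeks at ZT0 and 28.75 to 62.5 weeks at ZT20. KO mice weighed 25.5 to 34.5 g at ZT8 and 19.1 to 21.9 g at ZT20, and WT mice 21.6 to 23.1 g and 18.7 to 22 g. The labels name neither the Cre line nor the genotype of the WT mice beyond "WT".

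The respiratory chain passes electrons from NADH (complex I) and succinate (complex II) through coenzyme Q to complex III, then by cytochrome c to complex IV, where oxygen is reduced. Complexes I, III and IV pump protons across the inner membrane, and complex V, the ATP synthase, uses the gradient to make ATP. In the fasting liver this machinery oxidises the NADH and FADH2 that fatty acid oxidation yields. A few subunits of complexes I, III, IV and V are encoded in mitochondrial DNA; the count table has no row for them and they were not analysed here.

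The libraries were even in depth, with 12841969 to 13009797 counts each without Alb, the serum albumin gene. Hepatocyte markers summed to 24679 to 58160 CPM (counts scaled to the same library total) in WT and 17227 to 67520 CPM in KO libraries, and the 7 skeletal muscle markers to at most 2.29 CPM. Over all libraries, markers of Kupffer cells and macrophages summed to 80.2 to 815 CPM, of stellate cells and fibroblasts to 135 to 750.1 CPM and of endothelium to 43.4 to 139 CPM. Those of red blood cell precursors summed to 24.2 to 414 CPM, of neutrophils to 1.53 to 509 CPM and of exocrine pancreas to 4.21 to 311 CPM. Arntl spanned 0.819 to 43.8 CPM in WT and 1.58 to 37.04 CPM in KO libraries, which checks no label, because the deletion was in adipocytes and liver was measured. The replicates are separate mice by their ages and weights. In bulk liver, fewer cells of a type and less RNA per cell cannot be told apart.

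Libraries differed in how levels depended on transcript length. For each library, the deviation of every other gene whose mean log2 CPM reached 2 from its own mean was regressed on log2 transcript length; a slope below 0 means that short transcripts were relatively high. Slopes ran from -0.16 to 0.17, and 12 libraries lay beyond 0.1 in size, among them all 4 KO libraries of ZT4 (-0.14 to -0.11) and all 3 of ZT16 (-0.16, 0.11 and 0.17). The members are short, with a median length of 786 bases against 2721 for all tested genes. Fits with this slope as a covariate are given below for the shared rhythm, the rhythms by genotype and the differences between genotypes.

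Together the 80 genes made up 1.73% ± 0.26 of the counts (SD, n = 48), with a lowest value of 1.05% and a highest of 2.37%. Their summed CPM was 5124 ± 913 for complex I, 1225 ± 142 for complex II, 2309 ± 465 for complex III, 2808 ± 474 for complex IV and 5785 ± 730 for complex V (SD, n = 48). Levels of different genes were set against each other only as mean CPM per kb of transcript. On this scale Uqcrq, a small subunit of complex III, was highest at 895 ± 199 (SD, n = 48), next to Ndufa4 at 806 ± 260 and Cox6c, a small subunit of complex IV, at 795 ± 272, which do not differ beyond their spread. Ndufa4 stands with complex I by its name, although its protein is now assigned to complex IV. The catalytic beta subunit of the ATP synthase, Atp5b, stood at 664 ± 102 CPM per kb (SD, n = 48).

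The liver used mainly 1 isoform of each subunit compared here. The genes Atp5g1, Atp5g2 and Atp5g3, which encode the same ATP synthase protein, were all expressed and are given with complex V. Cox4i1 had 581 CPM per kb and Cox4i2, the lung isoform, 0.109, with 49 counts in all 48 libraries together. Cox6a1 had 416 CPM per kb against 0.0474 for Cox6a2, the heart and muscle isoform, which held 20 counts in all. Cox8a had 413 CPM per kb against 0.235 for the muscle isoform Cox8b and a single count for Cox8c. Ndufa4 exceeded its paralog Ndufa4l2 828-fold per length, Cox6b1 exceeded the testis isoform Cox6b2 262-fold, and Cox7a2 exceeded the muscle isoform Cox7a1 80.4-fold, from counts pooled over the libraries.

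The last 3 of these minor isoforms were the members nearest the count rule. Ndufa4l2 reached 10 counts in 19 libraries (0.163 to 3.16 CPM), Cox6b2 in 25 (0.153 to 4.33 CPM) and Cox7a1 in 42 (0.2998 to 4.16 CPM). Just outside the rule were Atp5l2, with 10 counts in 1 library, and Cox4i2, Cox6a2, Cox8b, Cox8c, Atp5l-ps1 and a second row of Ndufb8, which reached 10 counts in none. That second row overlaps the first (mm9 chr19:44618212-44627321 and chr19:44623062-44629930) and held 2 counts in all. All 80 members passed the edgeR filter on low counts, which left 13646 genes for the tests. How reads shared with paralogs and processed pseudogenes were counted is not given in the sources used here, so levels of such genes are uncertain.

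Over the 24 h, the chain was at its lowest at ZT0 and at its highest around ZT12. The mean log2 deviation of the 80 genes from their own means, per mouse, was -0.25 ± 0.22 at ZT0 (SD, n = 8 mice of both genotypes, as at every time). It was 0.08 ± 0.13 at ZT4 and 0.10 ± 0.16 at ZT8. The value was 0.16 ± 0.09 at ZT12 and 0.03 ± 0.24 at ZT16, and that of ZT20 was -0.12 ± 0.16. At ZT12, 7 of the 8 mice were above 0, and at ZT0 the same held for 1 of 8.

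A 24 h cosine shared by both genotypes was past the threshold (adjusted p under 0.05, edgeR quasi-likelihood test) for 51 of the 80 genes, 63.7%, against 42.3% of all 13646 tested genes. Of these 51, 48 had their fitted peak between ZT9 and ZT12, whereas 14.6% of the 5774 genes called over the whole table peaked in that window. Amplitudes were small: the median distance from mean to peak was 0.24 on the log2 CPM scale (0.32 for all called genes), a peak to trough ratio of 1.39-fold. The window was chosen after the peaks were seen. This peak time was not particular to the members: called cytosolic ribosomal protein genes had a median peak at ZT10.1, as did the called members. Among tested genes with transcripts of up to 1000 bases, 41.2% were called and 41% of those called peaked in the window. Among the 51 members of that length 32 were called, all peaking in it, and among the 29 longer members 19 were called, with 16 in the window. With the length slope as a covariate 46 members were called (37.8% of all genes), 44 of them among the 51. With the slope on GC content 49 were called (46.5% of all genes), but 35 of them were among the 51.

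**Figure D1:**
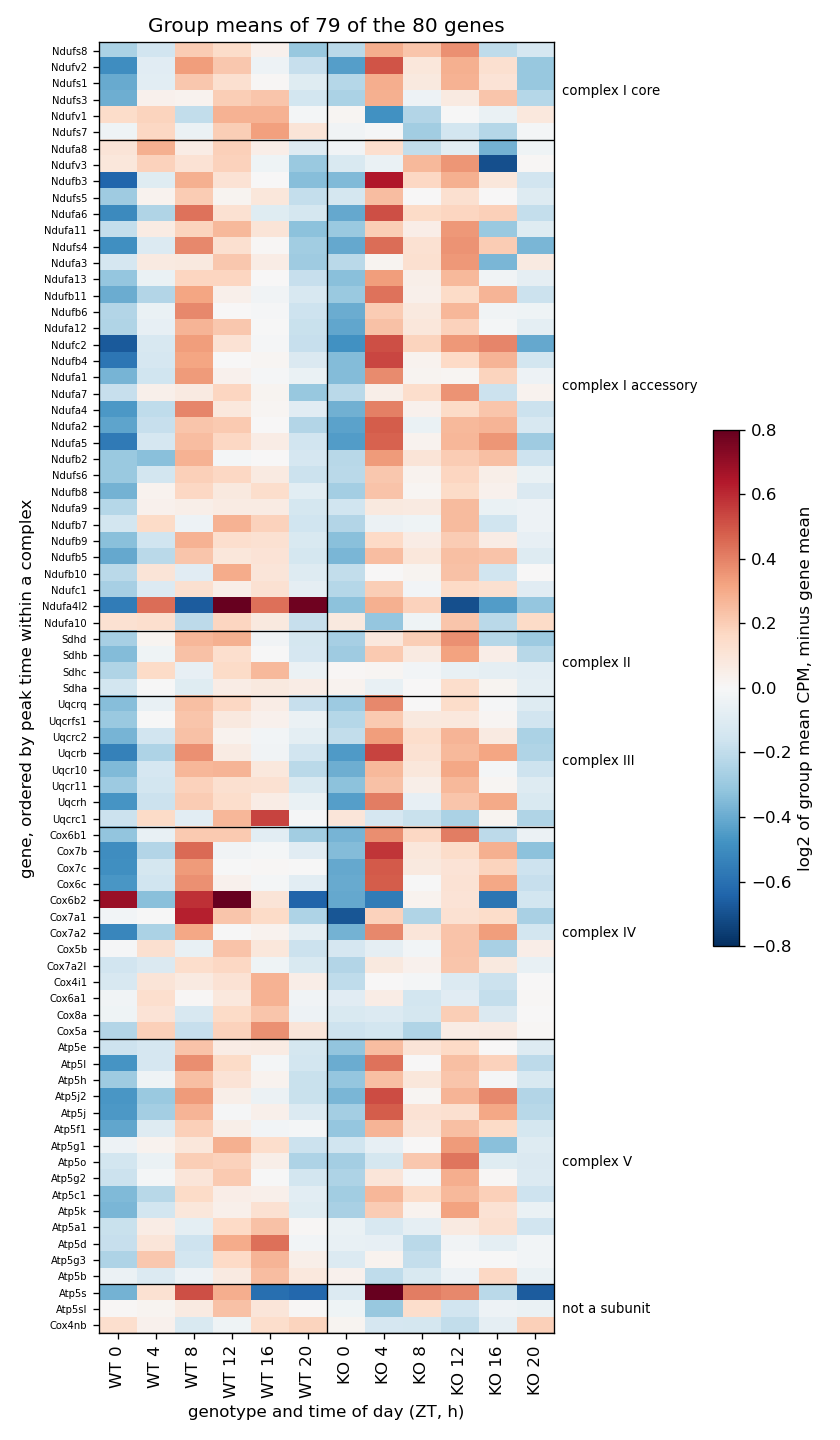
Each row is 1 of 79 of the 80 genes, ordered by fitted peak time within its complex, and each column is a genotype and time of day (ZT, h); colour is log2 of the group mean CPM minus the gene's mean, and values beyond 0.8 in size take the end colours. Most rows are low (blue) at ZT0 and ZT20 and high (red) at ZT8 and ZT12, and the KO column of ZT4 is redder than the WT column.

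Complex I takes electrons from NADH. Of its 37 members, 23 had the shared rhythm, 4 of the 7 core subunits and 19 of the 30 accessory ones, with peaks from ZT9.45 to ZT11.2. For this and the other complexes, the background is the 42.3% of all tested genes called. Ndufs8, an iron-sulphur subunit of the core, had the smallest p of the core (amplitude 0.27 ± 0.050 (SE), peak ZT9.54, adjusted p = 2.5e-04, edgeR). Its level in the 8 mice of a time averaged 66.4 ± 8.997 CPM at ZT0 and 93.5 ± 15.7 CPM at ZT12 (SD, n = 8). Ndufv2, which carries an iron-sulphur cluster of the NADH-oxidising module, had an amplitude of 0.34 ± 0.071 (SE), and Ndufs1 and Ndufs3 followed it with peaks at ZT9.97 and ZT11.2. Among the core subunits that did not pass were Ndufv1, which binds NADH, with an adjusted p of 0.288, and Ndufs7, with 0.740 (edgeR).

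Among accessory subunits, Ndufa11 had the smallest p (amplitude 0.26 ± 0.047 (SE), peak ZT9.59, adjusted p = 3.2e-04, edgeR). Ndufc2, at 0.39 ± 0.083 (SE), had the largest amplitude among the called subunits of any complex. Its level averaged 74.9 ± 13.2 CPM at ZT0 and 134 ± 36.6 CPM at ZT8 (SD, n = 8), with every mouse of ZT0 at or below 97.2 CPM and every mouse of ZT8 at or above 95.8 CPM. Ndufs4, needed for the stability of complex I, and Ndufb3 had amplitudes of 0.36 ± 0.073 and 0.34 ± 0.075 (SE). Ndufa8, Ndufa10, Ndufb7, Ndufb10 and Ndufa4l2 were among the 11 accessory members that did not pass.

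Complex II, succinate dehydrogenase, also belongs to the TCA cycle and has no mitochondrially encoded subunit. Its 4 genes divided: Sdhd, a membrane anchor, and Sdhb, the iron-sulphur subunit, had the shared rhythm, and Sdha, the flavoprotein subunit, and Sdhc, the other anchor, did not. To show these genes side by side, the 250 bases before the transcription start (RefSeq, GRCm38.p6) are printed 5′ to 3′ along the gene for Sdhd (chr9:50603850-50604099, minus strand), Sdhb (chr4:140961021-140961270, plus strand) and Sdha (chr13:74350241-74350490, minus strand). Capitals mark matches, on either strand, to CCGGAAG (an ETS family core, as bound by GABP) or GCATGCG (an NRF1 core), factors known for activating respiratory chain genes.
Sdhd: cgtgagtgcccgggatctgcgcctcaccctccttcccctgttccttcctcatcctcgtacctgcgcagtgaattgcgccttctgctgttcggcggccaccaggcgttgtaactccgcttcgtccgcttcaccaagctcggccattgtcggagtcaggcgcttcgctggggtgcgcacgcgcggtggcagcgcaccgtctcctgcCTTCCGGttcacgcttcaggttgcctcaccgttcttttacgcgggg
Sdhb: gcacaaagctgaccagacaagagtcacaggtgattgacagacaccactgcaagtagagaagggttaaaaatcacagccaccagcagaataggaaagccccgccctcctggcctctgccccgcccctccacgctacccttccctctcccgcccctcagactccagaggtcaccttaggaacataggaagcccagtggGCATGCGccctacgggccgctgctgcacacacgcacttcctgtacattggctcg
Sdha: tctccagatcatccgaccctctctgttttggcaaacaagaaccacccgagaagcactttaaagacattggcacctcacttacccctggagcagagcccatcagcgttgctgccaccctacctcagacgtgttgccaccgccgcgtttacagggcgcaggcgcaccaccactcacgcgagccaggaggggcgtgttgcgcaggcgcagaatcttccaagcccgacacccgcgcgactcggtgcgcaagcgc
The Sdhd sequence holds an ETS match that begins 46 bases before the start and the Sdhb sequence an NRF1 match that begins 54 bases before it. The Sdha sequence holds neither exact string. Variants of these strings were not searched, so a sequence without a mark may still hold a site, and no link to the rhythm was tested.

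Sdhd (mm9 chr9:50404443-50411954) had the smallest p of all subunits. In WT mice it stood at 247, 316, 196 and 272 CPM at ZT0, at 297, 291, 350 and 320 at ZT4, and at 389, 329, 412 and 365 at ZT8. At ZT12 the WT mice had 422, 414, 285 and 392 CPM, at ZT16 338, 393, 270, 283 and 235, and at ZT20 261, 352, 251 and 263. In KO mice the levels were 227, 278, 253 and 273 CPM at ZT0, 232, 393, 329 and 362 at ZT4, and 356, 388, 352 and 324 at ZT8. They were 435, 355, 390 and 420 CPM at ZT12, 253, 240 and 301 at ZT16, and 212, 214, 284 and 303 at ZT20. All 8 mice of ZT8 lay above all 8 of ZT0, and at every time the WT and KO mice overlapped. The fitted amplitude was 0.31 ± 0.044 (SE) with a peak at ZT9.61 ± 0.55 h (SE), a 1.53-fold range, and the adjusted p was 8.7e-06 (edgeR).

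Sdhb followed with an amplitude of 0.26 ± 0.054 (SE), a peak at ZT10.3 and an adjusted p of 0.0017 (edgeR); its mean rose from 197 ± 42.6 CPM at ZT0 to 288 ± 31.8 at ZT12 (SD, n = 8). Sdha, with a mean level of 490 ± 55.9 CPM (SD, n = 48), had an amplitude of 0.07 ± 0.034 (SE; adjusted p = 0.290, edgeR). Sdhc had 0.07 ± 0.078 (SE; adjusted p = 0.773). The difference between the amplitudes of the 4 genes was not tested.

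**Figure D2:**
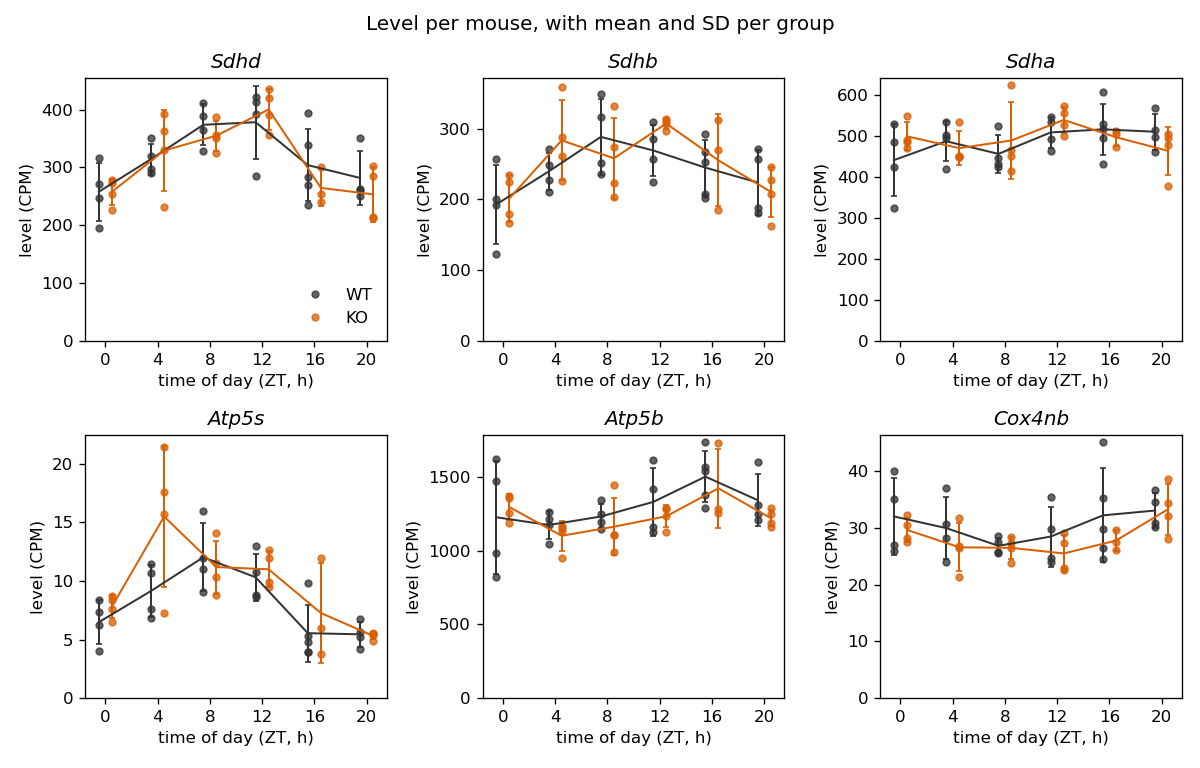
Levels in CPM by time of day (ZT, h) for 6 genes; points are mice (WT dark, KO orange), lines join group means and bars are 1 SD (4 mice per group, 5 WT and 3 KO at ZT16). Sdhd and Sdhb are highest at ZT8 to ZT12 and Sdha stays between 325 and 625 CPM; Atp5s is highest at ZT4 to ZT12, Atp5b at ZT16, and Cox4nb at ZT20.

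Complex III passes electrons from coenzyme Q to cytochrome c, and 7 of its 8 members had the shared rhythm, all peaking between ZT9.53 and ZT11.1. The small subunit Uqcr10 led them (amplitude 0.30 ± 0.061 (SE), adjusted p = 7.8e-04, edgeR), from 145 ± 26.7 CPM at ZT0 to 229 ± 49.0 at ZT12 (SD, n = 8). The Rieske iron-sulphur protein gene Uqcrfs1 had an amplitude of 0.17 ± 0.040 (SE) and the core protein gene Uqcrc2, with a mean level of 402 ± 99.1 CPM (SD, n = 48), 0.24 ± 0.062 (SE). The exception was Uqcrc1, the other core protein gene (adjusted p = 0.700, edgeR), which varied from 83.7 to 377 CPM between mice.

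Complex IV, cytochrome c oxidase, had the fewest rhythmic members for its size, 5 of 13: Cox6b1, Cox7a2, Cox7a2l, Cox7b and Cox7c. That share is near the 42.3% of all tested genes. The 13 include Cox6b2 and Cox7a1, which lay near the count rule. Cox6b1 had the smallest p (amplitude 0.30 ± 0.063 (SE), peak ZT9.38, adjusted p = 0.0015, edgeR), with 240 ± 61.4 CPM at ZT0 and 379 ± 58.6 at ZT12 (SD, n = 8). Cox7a2l, which is counted with complex IV by its symbol, had an amplitude of 0.17 ± 0.036 (SE). Cox4i1, with a mean level of 433 ± 114 CPM (SD, n = 48), did not pass (adjusted p = 0.786, edgeR), nor did Cox5a, Cox5b, Cox6a1, Cox6c and Cox8a. Cox6a1 was the flattest of these, with an amplitude of 0.02 ± 0.068 (SE). Whether the share differs between complexes was not tested.

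The Cox6a1 promoter is shown because it holds both matches without the rhythm (RefSeq, GRCm38.p6, chr5:115348959-115349208, minus strand, capitals as above). Both matches are also found in the promoters of Atp5l, which had the shared rhythm, and of Atp5j.
Cox6a1: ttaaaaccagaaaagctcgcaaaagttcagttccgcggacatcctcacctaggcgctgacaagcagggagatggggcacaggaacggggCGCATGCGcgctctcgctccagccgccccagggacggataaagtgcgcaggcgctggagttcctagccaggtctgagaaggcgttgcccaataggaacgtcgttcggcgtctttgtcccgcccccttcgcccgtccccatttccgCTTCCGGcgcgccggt
Of the members, 67 had an entry in the RefSeq promoter table. CCGGAAG was found in 12 of them (17.9%) against 7.83% of all 27025 promoters of that length, and GCATGCG in 9 (13.4%) against 3.43%. The E-box CACGTG, the core bound by BMAL1 with CLOCK, was in 7 (10.4%) against 6.86%, and AAGATGG, the core bound by YY1, in 2 (2.99%) against 5.18%. By rhythm, 10 of the 44 rhythmic members with an entry held CCGGAAG, 7 GCATGCG, 4 CACGTG and 1 AAGATGG. Among the 23 others the counts were 2, 2, 3 and 1. The difference between these small counts was not tested. Both strands were searched, and none of these motifs contains another.

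Complex V had 12 of 15 members with the shared rhythm. Atp5g2, 1 of 3 genes for the same c-ring protein, had the smallest p (amplitude 0.18 ± 0.030 (SE), peak ZT10.8, adjusted p = 2.4e-04, edgeR), with 59.2 ± 5.83 CPM at ZT0 and 81.3 ± 8.49 at ZT12 (SD, n = 8). Of the other c-ring genes, Atp5g1 passed (adjusted p = 0.036) and Atp5g3, with 723 CPM per kb the highest of the 3, did not (adjusted p = 0.573, edgeR). The Atp5g2 promoter, shown as that of the leading complex V gene, holds NRF1 matches on both strands, which overlap and begin 40 and 41 bases before the start (GRCm38.p6, chr15:102671048-102671297, minus strand).
Atp5g2: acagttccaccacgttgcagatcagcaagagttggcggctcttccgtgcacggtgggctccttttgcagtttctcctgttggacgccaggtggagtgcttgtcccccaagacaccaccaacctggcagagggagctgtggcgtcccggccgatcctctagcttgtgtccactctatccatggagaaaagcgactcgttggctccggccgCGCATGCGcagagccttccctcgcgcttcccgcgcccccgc
Atp5o, which joins the stalk to the catalytic head, had an amplitude of 0.27 ± 0.052 (SE). Atp5b peaked apart from the rest, at ZT16.4 ± 1.06 h (SE), with an amplitude of 0.14 ± 0.040 (SE; adjusted p = 0.029, edgeR): 1138 ± 99.0 CPM at ZT4 and 1473 ± 199 at ZT16 (SD, n = 8). Its partner in the head, Atp5a1, did not pass (adjusted p = 0.097).

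Of the 3 symbol matches that are no subunit, 2 had the shared rhythm, with peaks at other times of day. Atp5s had the smallest p of all 80 and the largest amplitude, 0.62 ± 0.082 (SE), a 2.37-fold range, with an early peak at ZT7.35 ± 0.51 h (SE; adjusted p = 8.1e-07, edgeR). In WT mice it stood at 4.02, 7.34, 6.22 and 8.35 CPM at ZT0, 12.0, 16.0, 11.1 and 9.06 at ZT8, and 4.16, 6.73, 5.24 and 5.66 at ZT20. In KO mice it stood at 8.40, 8.75, 7.63 and 6.48 CPM at ZT0, 10.3, 14.1, 11.6 and 8.78 at ZT8, and 5.45, 4.88, 5.40 and 5.53 at ZT20. All mice of ZT8 were above all mice of ZT0 and ZT20. Cox4nb had its peak at ZT20.7 (amplitude 0.15 ± 0.041 (SE), adjusted p = 0.016, edgeR), with 33.2 ± 3.55 CPM at ZT20 and 26.6 ± 1.62 at ZT8 (SD, n = 8). Atp5sl did not pass (adjusted p = 0.736).

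**Figure D3:**
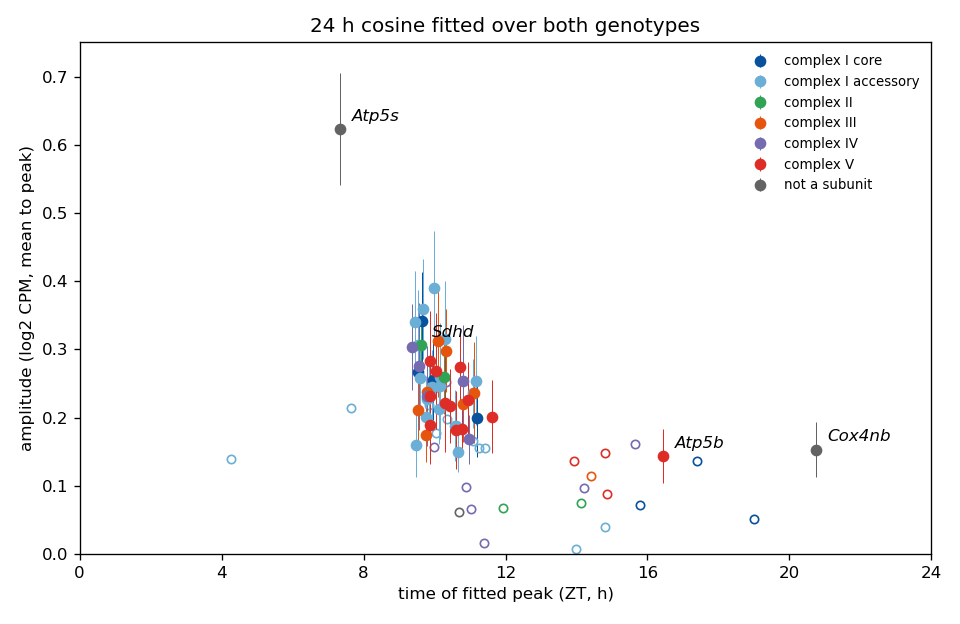
Fitted 24 h cosine over both genotypes for the 80 genes: time of peak (ZT, h) against amplitude (log2 CPM, mean to peak); colours are complexes, filled points with 1 SE bars passed the test (51 genes) and open points did not (29). Filled points crowd between ZT9 and ZT12 at amplitudes of 0.15 to 0.39; Atp5s, Atp5b and Cox4nb lie outside.

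Taken by genotype, fewer genes passed. In WT 12 of 80 (15%) had a rhythm, against 16.3% of all genes, and in KO 6 of 80 (7.5%), against 17%. Neither count was stable, nor was its place below or above the background. With the length slope 4 passed in WT (15.7% of all genes) and 18 in KO (14.4%), and with body weight 14 in WT (16.1%) and 20 in KO (19.3%). With the GC slope there were 28 in WT (29.8%) and 16 in KO (21.2%), and in DESeq2 20 in WT (19.8%) and 13 in KO (21.1%). Sdhd, Atp5s, Atp5g2, Ndufs8 and Ndufa11 passed in both genotypes, Atp5o in KO alone, and Ndufa12, Ndufb3, Ndufb9, Ndufs4, Ndufs6, Ndufv2 and Uqcr10 in WT alone. The test of the difference in rhythm called none of the 80 (0.00733% of all genes, edgeR; none of the 80 at an unadjusted p under 0.05, against 363 of 13646 genes or 2.66%, and none by DESeq2), so no gene was shown to be rhythmic in 1 genotype more than in the other.

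Over the 51 genes with the shared rhythm, the median amplitude was 0.26 in WT and 0.23 in KO. The median fitted peak was ZT10.7 in WT and ZT9.21 in KO, earlier in KO for 43 of the 51 (64.6% of all called genes); the median SE of a single peak was 1.16 h in WT and 1.46 h in KO. With the length slope in the fit both orders turned: the median amplitude was 0.19 in WT and 0.22 in KO, and the median peak ZT11.0 in WT and ZT11.5 in KO. Without KO replicate 3 of ZT16, whose slope was -0.16 beside 0.11 and 0.17 in the other 2 mice, 30 members passed in KO (26.6% of all genes) and 23 in WT (19.5%). Single libraries moved the counts elsewhere too. In KO 13 passed without ZT8 KO replicate 1 (2452 of all genes) and 11 without ZT20 KO replicate 3 (2501 of all genes). In WT 5 passed without ZT0 WT replicate 3 (2010 of all genes) and 6 without ZT12 WT replicate 1 (1955). It was 7 in WT without ZT0 WT replicate 4 (2050) or ZT8 WT replicate 2 (1879). The count in WT was 22 without ZT12 WT replicate 3 (2540) or ZT20 WT replicate 2 (2987). With all libraries 2322 of all genes passed in KO and 2228 in WT.

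Over all times, no member differed between KO and WT: 0 of 80 passed in edgeR, against 1.4% of all genes (191 of 13646), and 0 in DESeq2. At an unadjusted p under 0.05 there were 2 of 80 members and 17.1% of all genes. The median log2 difference, KO minus WT, was 0.04 (-0.005 for all genes), 51 members were above 0, and the median SE was 0.094. With the length slope as a covariate the median was -0.007 and with the GC slope -0.008, and 0 members passed in either fit. The differences of single members ran from -0.51, for the scarcely detected Cox6b2 (SE 0.28), to 0.23.

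The 3 smallest p-values belonged to Ndufs7, Ndufb3 and Atp5s. Ndufs7, which carries the last iron-sulphur cluster before coenzyme Q, was at 68.5 to 190 CPM in WT and 71.8 to 137 CPM in KO, lower in KO at 5 of 6 times (log2 difference -0.24, SE 0.099, adjusted p = 0.213, edgeR). Ndufb3 had 0.22 (SE 0.099, adjusted p = 0.245) and Atp5s 0.23 (SE 0.12, adjusted p = 0.321). The ranges of the genotypes overlapped for each. The leading members of the other complexes were Sdhd at -0.05 (SE 0.068, adjusted p = 0.718), Uqcrb at 0.18 (SE 0.11, adjusted p = 0.407) and Atp5j at 0.18 (SE 0.099, adjusted p = 0.345).

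**Figure D4:**
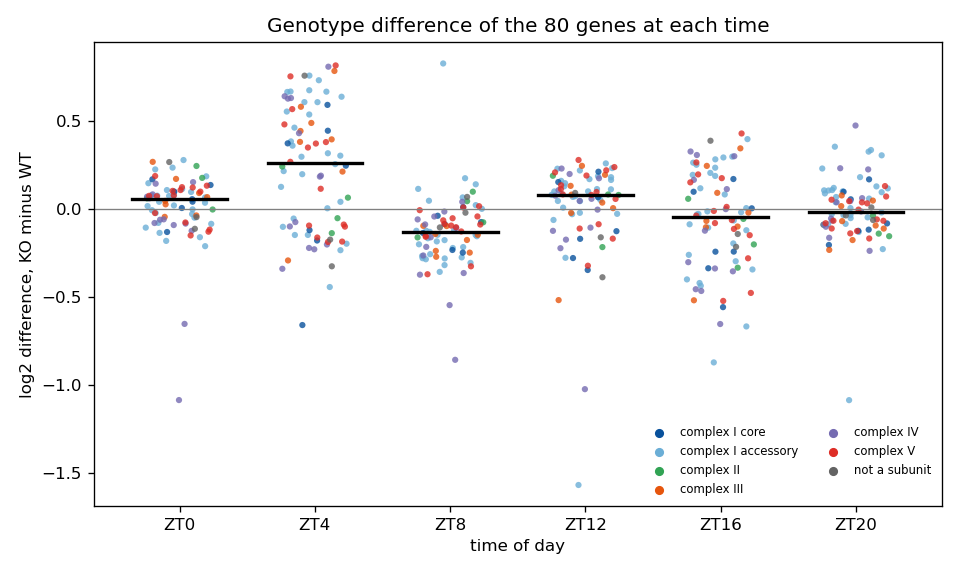
Log2 difference KO minus WT of each of the 80 genes at each time of day, coloured by complex; black bars are medians (0.06, 0.26, -0.13, 0.08, -0.05 and -0.02 from ZT0 to ZT20). At ZT4 the points spread upward, and at ZT8 65 of 80 lie below 0, whereas 50.9% of all genes lie above 0 at ZT8. The ZT8 median of the 80 genes was -0.009 with body weight as a covariate and -0.06 with the length slope. It was -0.11 with the GC slope and -0.12 with a replicate block.

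At single times 0 of the 80 genes passed at each of the 6 times in edgeR and in DESeq2, against 0.0147% of all genes at ZT0, 0.0366% at ZT4, 0.022% at ZT16 and 0% at ZT8, ZT12 and ZT20. The interaction of genotype with time called none (0.00733% of all genes), with none of the 80 and 447 genes in all (3.28%) at an unadjusted p under 0.05. At an unadjusted p under 0.05 there was 1 member at ZT12 (1.25%, against 4.4% of all genes). There were 4 at ZT16 (5%, against 6.65%) and 27 at ZT4 (33.8%, against 23.3%). None had such a p at ZT0, ZT8 and ZT20, against 5.53%, 1.82% and 1.84% of all genes.

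ZT4 stood out among the times. The median log2 difference was 0.26 (-0.005 for all genes), 53 of 80 members were above 0, and 33.8% had an unadjusted p under 0.05, against 23.3% of all genes; 26 of those 27 were higher in KO. Atp5j, in the peripheral stalk of the ATP synthase, had 0.76 (SE 0.24, adjusted p = 0.122, edgeR), Ndufb3 0.73 (SE 0.24, adjusted p = 0.125) and the complex III subunit Uqcrb 0.79 (SE 0.28, adjusted p = 0.132). Uqcrb stood at 195, 209, 199 and 187 CPM in the WT mice of ZT4 and at 203, 317, 430 and 415 CPM in the KO mice. Ndufb3 stood at 84.2, 81.7, 77.1 and 61.3 CPM in WT and at 84.4, 137, 138 and 146 CPM in KO. In both genes KO replicate 1 lay within or next to the WT range and the other 3 KO mice above it. In the opposite direction, Ndufv1 was at -0.66 (SE 0.29, adjusted p = 0.182).

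Members passed at ZT4 when either of 2 KO libraries was left out. Without ZT16 KO replicate 3, which enters only the shared spread, scaling and filter, Ndufb3 and Atp5j passed (adjusted p = 0.0461 each, edgeR; 2.32% of all genes). Without ZT4 KO replicate 1, 25 of 80 passed, 24 higher in KO and Ndufv1 lower, in a fit that called 24.6% of all genes (3354 of 13631) at that time. Among the 24 were 10 accessory subunits of complex I, such as Ndufb3 and Ndufa6, the core subunits Ndufs8 and Ndufv2, and Atp5j, Uqcrb, Cox7b and Cox7c. The mean log2 deviation of the 80 genes was 0.09, 0.16, 0.18 and 0.29 in the KO mice of ZT4 and -0.01, 0.003, 0.006 and -0.10 in the WT mice, with no overlap.

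The length slope moved with this difference. It was -0.11, -0.13, -0.14 and -0.12 in the KO mice of ZT4 and -0.06, 0.03, -0.01 and 0.04 in the WT mice. The slope on GC content set KO replicate 1 apart from the other KO mice. In order of replicate it was 0.52, -0.33, -0.82 and -0.70 in KO and 0.56, 0.34, 0.02 and -0.03 in WT. Its part in the split between replicate 1 and the other KO mice was not tested. Over all tested genes with transcripts of up to 1000 bases the median difference at ZT4 was 0.35 and 74.1% were above 0; over the 51 members of that length it was also 0.35, with 68.6% above 0. Over the 29 longer members it was 0.21, against -0.05 for all longer genes. With the length slope as a covariate the median of the 80 was -0.004 and 1 had an unadjusted p under 0.05; with the slope on GC content it was 0.16 and 2 did. Summed hepatocyte markers were 22280 to 47997 CPM in the KO and 42542 to 49436 CPM in the WT mice of ZT4, and endothelial markers 44.8 to 96.8 CPM in KO and 88.3 to 105 CPM in WT. Their part in the difference was not tested.

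At ZT16 the KO mice differed among themselves. The mean deviation of the 80 genes was -0.27 in replicate 1, -0.18 in replicate 2 and 0.33 in replicate 3, and Uqcrb, for example, stood at 176, 178 and 523 CPM in them. Their slopes on GC content were 0.11, 0.17 and -0.77 in the same order. The median log2 difference at ZT16 was -0.05 with all 3 mice, -0.35 without replicate 3, 0.11 without replicate 1 and 0.05 without replicate 2, so its sign changed with the mouse left out. With all mice and without replicate 3, 0 members passed (0.0504% of all genes passed without replicate 3).

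**Figure D5:**
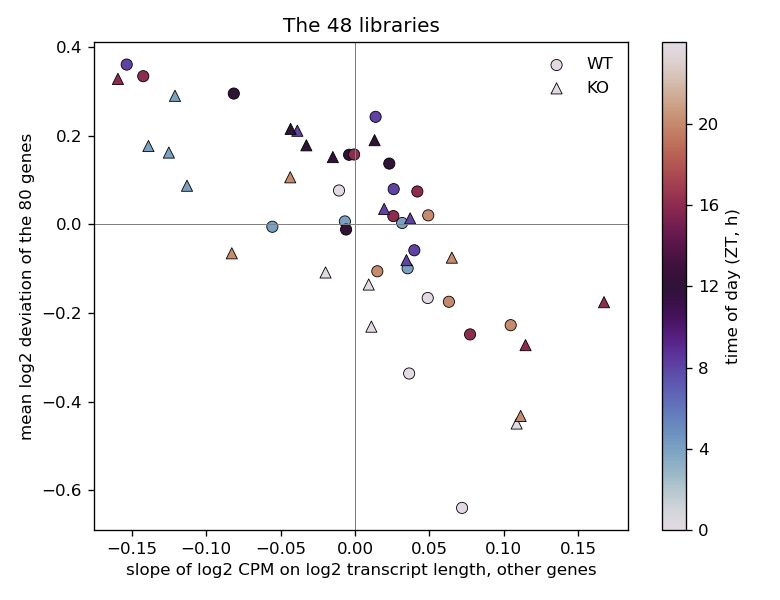
Each of the 48 libraries is a point (circles WT, triangles KO, coloured by time of day): slope of log2 CPM on log2 transcript length over the other genes, against the mean log2 deviation of the 80 genes. The 6 libraries of lowest slope lie between 0.16 and 0.36 and the 6 of highest slope between -0.45 and -0.18.

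The members varied together from mouse to mouse within groups. Among the 75 members whose mean log2 CPM reached 5, the median correlation of 2 members over the 48 libraries, after each group's mean was subtracted, was 0.46, against 0.02 for all 4086 genes at that level. The points of such a correlation share library and depth. With the length slope removed it was 0.32 against 0.03. Complex III was the most coherent (0.66, and 0.59 with the slope removed), followed by the accessory subunits of complex I (0.59 and 0.39). Complex IV was the least (0.06 and -0.16). Ndufb8 followed the mean of the other members most closely (r = 0.95, and 0.86 with the slope removed), and Atp5h next (0.90 and 0.84). Atp5sl, Ndufv3, Ndufv1 and Uqcrc1 followed it least (-0.18, -0.10, -0.07 and -0.01). These are descriptions over 48 libraries.

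The wider pathway gave no difference between genotypes over all times: 0 of 9 subunits and carriers outside the symbol pattern, 0 of 35 rows for assembly factors, 0 of 17 regulators of mitochondrial biogenesis, 0 of 10 genes of coenzyme Q synthesis and 0 of 14 of the TCA cycle passed in edgeR. Their median log2 differences were 0.05, 0.08, 0.11, 0.05 and 0.01. The shared rhythm, with its background of 42.3%, was called for 6 of 9, 19 of 35, 10 of 17, 5 of 10 and 6 of 14. Cytosolic ribosomal protein genes, whose transcripts are as short (median 774 bases), were called for 61 of 73. Their median peak was ZT10.1 and their median amplitude 0.25, close to the ZT10.1 and 0.24 of the called members. Mitochondrial ribosomal protein genes, with a median of 1223 bases, were called for 51 of 76, with a median peak at ZT8.18.

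Some genes of these lists had wider swings than any called subunit, and some peaked at other times of day. Sco2, a copper chaperone for complex IV, had an amplitude of 0.84 ± 0.090 (SE) with a peak at ZT22.5 (adjusted p = 2.6e-08, edgeR). Adck3, of coenzyme Q synthesis, had 0.74 ± 0.078 (SE) at ZT22.6 (adjusted p = 7.7e-09), and Esrrg, a nuclear receptor that activates oxidative genes, 0.71 ± 0.11 (SE) at ZT7.96 (adjusted p = 1.0e-05). Gabpb1, a subunit of GABP, peaked at ZT4.47 (0.26 ± 0.030 (SE), adjusted p = 1.1e-06), and Nrf1, named because its motif was searched, at ZT20.6 (0.19 ± 0.042 (SE), adjusted p = 0.0029, edgeR). Of the other GABP genes, Gabpa did not pass (adjusted p = 0.149) and Gabpb2 peaked at ZT8.17 (0.22 ± 0.060 (SE), adjusted p = 0.0098, edgeR). In the TCA cycle, Cs, citrate synthase, peaked at ZT23.9 (0.30 ± 0.056 (SE), adjusted p = 1.8e-04) and Idh3g at ZT8.76 (0.17 ± 0.031 (SE), adjusted p = 7.4e-04, edgeR). Outside the symbol pattern, Atpif1, the inhibitor protein of the ATP synthase, peaked at ZT10.2 (0.35 ± 0.074 (SE), adjusted p = 0.0024) and Usmg5, a small ATP synthase subunit, at ZT9.54 (0.35 ± 0.086 (SE), adjusted p = 0.0060, edgeR).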

How the data were processed

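Per the labels' protocols, polyA libraries were made with a stranded TruSeq kit and 13 PCR cycles over 3 days; which library was made on which day is not given. Per the submitters' processing notes, CASAVA and STAR 2.4.1d were used with mouse build mm9. The authors deposited whole-number read counts per gene; the counting program, the annotation and any step that evened out depth are not given in the sources used here. Alb was left out because its values look unlike plain counts (5.66% to 14.6% of a library).

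Counts were tested with edgeR 4.0.16 (limma 3.58.1, R 4.3.3): filterByExpr, TMM factors (0.892 to 1.11), a quasi-likelihood model over all 48 libraries with 12 group means, and a second with a mean and a 24 h cosine and sine per genotype. The Benjamini-Hochberg adjustment ran over all 13646 tested genes, with a threshold of 0.05. Amplitudes and peaks came from least squares on log2 CPM (prior count 2), and levels are CPM with TMM-scaled library sizes. The scripts were tested on simulated data. Transcript lengths and GC content came from GENCODE M21 (97.6% of tested genes), and slopes left the members out. Alternatives were RLE scaling, DESeq2 1.42.0, no count filter, Alb kept, each library left out, a replicate block, body weight, age, GC slope or length slope as a covariate, times as a factor, prior count 0.5, and, added after the data were seen, leaving out the 12 libraries with slopes beyond 0.1.

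The members and lists were chosen with earlier results of these data known. Genes were named by rule: up to 12 past the threshold by p, or else the 3 smallest p; per complex the smallest p and highest CPM; isoforms; members near the count rule; non-subunits; and up to 3 per other list. The lists had 306 entries, of which 299 matched a symbol, 6 matched through an identifier and 1 had no match. Promoters were matched by symbol or RefSeq synonym for 67 members. The values of 1 gene that the rule names are not reported here.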

Additional observations from a re-analysis of the deposited data

Results flagged for a closer look

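A single mouse stood far from the others of its group in 8 of 77 groups checked (groups of 4 or 5 mice, for the mean of the 80 genes and 6 named genes); chance alone marks about 1 group in 20. The mean log2 deviation of the 80 genes was -0.099 in ZT4 WT replicate 4, with the other 3 between -0.0056 and 0.0064. Sdhd stood at 351.6 CPM in ZT20 WT replicate 2 (others 251.2 to 263.0). Atp5s stood at 9.80 CPM in ZT16 WT replicate 2 (others 3.91 to 5.31). Ndufs8 stood at 82.0 CPM in ZT4 WT replicate 3 (others 65.5 to 67.1). Atp5g2 was marked in 3 groups, with 76.9 CPM in ZT4 WT replicate 3 (others 63.6 to 65.2), 65.6 CPM in ZT8 WT replicate 4 (others 74.8 to 76.1) and 59.9 CPM in ZT16 WT replicate 5 (others 69.2 to 72.9). Sdha stood at 533.2 CPM in ZT4 KO replicate 1 (others 447.6 to 452.0), the library without which 25 members passed at that time.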

How the results depend on the processing

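The count of 51 genes with the shared rhythm stayed within 1.5 times (37 to 55) under every alternative, with a range of 39 to 55 over libraries left out. The share of all genes called was less steady. It was 42.3% in the main fit, 24.3% without a count filter and 46.5% with the GC slope. With times as a factor 37 members and 28.7% of all genes were called. Without the 12 libraries with slopes beyond 0.1 it was 49 members and 28.7%. Under each alternative that kept all libraries or left out these 12, 29 genes were called. The 12 genes rhythmic in WT were 20 with DESeq2 (19.8% of all genes), 7 without a count filter (8.56%) and 28 with the GC slope (29.8%). They were 4 with the length slope (15.7%) and 2 with times as a factor (8.55%). Over libraries left out the count in WT was 5 to 23. It was 5 without ZT0 WT replicate 3 (2010 of all genes) and 23 without ZT16 KO replicate 3 (19.5% of all genes). The 6 rhythmic in KO were 13 with DESeq2 (21.1%), 20 with body weight (19.3%), 16 with the GC slope (21.2%) and 18 with the length slope (14.4%). Over libraries left out the count in KO was 4 to 30, with 30 without ZT16 KO replicate 3 (26.6% of all genes). The causes were not tested. KO minus WT over all times, the interaction and the difference in rhythm called 0 members under every alternative. Single times called 0 to 25 over libraries left out. Without ZT4 KO replicate 1 it was 25 at ZT4, with 24.6% of all genes. Without ZT16 KO replicate 3 it was 2, Ndufb3 and Atp5j at ZT4, with 2.32% of all genes. The order of the counts in WT and KO (12 and 6) turned with the length slope (4 and 18), with body weight (14 and 20) and without ZT16 KO replicate 3 (23 and 30), and the median difference KO minus WT over all times turned from 0.04 to -0.007 with the length slope and -0.008 with the GC slope.

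Over all tested genes, the 191 called over all times were 356 with DESeq2, 122 without a filter, 124 with the replicate block and 38 with body weight. Replicate numbers were shared by 23 WT and KO pairs; the mice of every pair but 1 had the same age, 13 pairs correlated over 0.1 (all 4 of ZT4 among them), 10 of 23 mice correlated best with their own number, and the median correlation was 0.12 within numbers and -0.03 between them. The labels do not say that a number marks a litter or batch and not every pair correlated, so the mice were not treated as paired; whether they were littermates is not given in the sources used here. With a replicate block for these pairs 0 members were called over all times, at each time, in the interaction and in the test of different rhythms; rhythms within a genotype and the shared rhythm could not be fitted with it. At this depth Cox6b2 and Ndufa4l2 averaged 11.5 and 11.73 counts a library, which limits what can be seen in them.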
